A study of Homo sapiens with 8 samples.

Results

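The transforming growth factor-β (TGFβ) pathway was described by 9 genes chosen by name, with earlier results of these data known. They were the ligands *TGFB1* and *TGFB2*, the receptors *TGFBR1* and *TGFBR2*, the signal transducer *SMAD3*, the inhibitors *SMAD7* and *SKIL*, and the target genes *TGFBI* and *PMEPA1*. These are 9 of the 58051 genes in the count tables, and all 9 had enough reads to be among the 17671 genes tested. RNA was measured in A375, a human melanoma cell line, to look for factors tied to the adherens junctions that melanoma cells form when serum is removed, and TGFβ was among the factors considered. The samples were 4 wild-type lines, WT1 to WT4, each grown from a single cell of A375. Each line was kept in DMEM for 12 h, either with 10% fetal bovine serum or without it, and gave 1 library per condition. Both conditions thus hold the same 4 lines, and each line is 1 clone of the same tumor cell line. A p-value that treats the lines as plain replicates therefore measures the spread between these clones. One that compares libraries within each line measures how far the change varies among the same 4 clones.

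TGFβ ligands are secreted in a latent form and must be released before they can act. Active ligand binds the type II receptor TGFBR2, which recruits and phosphorylates the type I receptor TGFBR1. TGFBR1 in turn phosphorylates SMAD2 and SMAD3, which enter the nucleus with SMAD4 and switch target genes on or off. Some of these targets, such as *SMAD7*, *SKIL* and *PMEPA1*, encode inhibitors that dampen the pathway. TGFβ arrests normal melanocytes, whereas melanoma cells commonly secrete it and grow in its presence. The libraries report the RNA of the cells. TGFβ protein, SMAD phosphorylation and the ligand that serum itself brings were not measured.

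Reads counted on genes ran from 29759279 to 73341551 per library. Multiply aligned reads, which HTSeq leaves out, made up 22.7% of the reads tallied for the serum library of WT1. The share was 16.8% for that of WT2, against 5.73% to 10.1% for the other 6. The tally lists 0 reads outside genes in every library, so these are shares of the listed classes only. Reads ambiguous between genes made up 8.23% to 11.5%. The count columns of WT4 carry another name, so the identity of that line rests on the labels. Among melanocyte genes, *MITF* had 1106 to 2319 reads and *S100B* 512 to 1413, while *MLANA* had 28 to 89, *TYR* 0 to 4 and *SOX10* 0 in all 8 libraries. *SOX10* overlaps *POLR2F* on the opposite strand, and HTSeq leaves reads on both genes uncounted. Among 4 genes of undifferentiated melanoma, the receptor kinase gene *AXL* had 13669 to 44307 reads, *NGFR* 934 to 15199, *EGFR* 255 to 2706 and *SOX9* 0 to 41. Summed over the 8 melanocyte genes, the level was 57.6 to 70.9 CPM (counts scaled to library size) with serum and 54.7 to 75.0 without, and over these 4 it was 523 to 865 and 347 to 815 CPM. Of the genes of other cell types, *EPCAM*, *CDH1*, *PTPRC*, *CD3E*, *CD68* and *COL3A1* had at most 10 reads in any library, while *LUM* had 128 to 268, *DCN* 8 to 302, *PDGFRA* 21 to 227, *KRT5* 0 to 98, *CDH5* 4 to 85 and *VWF* 9 to 58. The 4 fibroblast genes summed to 4.77 to 8.93 CPM with serum and 6.99 to 8.64 CPM without. The sums reached at most 1.45 CPM for the 3 epithelial, 1.87 CPM for the 2 endothelial and 0.21 CPM for the 3 leukocyte genes, and their part in the results was not tested.

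After 12 h without serum the type II receptor gene *TGFBR2* and the transducer gene *SMAD3* were higher, and the 9 genes as a whole did not move one way. These 2 passed the test across all genes with the lines as plain replicates. *TGFBI* rose by a similar amount in each line, and *PMEPA1*, *TGFB2* and *SKIL* fell in each line, but with all 8 libraries these 4 passed once the line was entered as a block and not before. A block compares each serum-free library with the serum library of its own line, so that lasting differences between lines do not count as error. *TGFB1* passed narrowly with the block, and *TGFBR1* and *SMAD7* passed in neither fit. In bulk RNA of this kind, fewer cells that express a gene and less RNA per cell cannot be told apart.

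In numbers, 2 of the 9 genes were called higher and 0 lower without the block by edgeR's quasi-likelihood test at an adjusted p of 0.05, where 11.1% and 14.0% of all genes tested were called. At an unadjusted p under 0.05 the same 2 passed, and DESeq2 and limma's voom also called 2 higher and 0 lower. With the block 4 were called higher and 3 lower, against backgrounds of 23.2% and 22.4%. The median log2 fold change of the 9 was 0.01 in both fits, beside 0.03 and 0.04 for all genes tested. The serum and serum-free libraries overlapped for each of the 9, whereas 12.6% of all genes had every serum-free library above every serum library and 15.0% had every one below. The direction was the same in all 4 lines for 7 of the 9, 4 upward and 3 downward, and this was so for 55.4% of all genes.

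**Figure D1:**
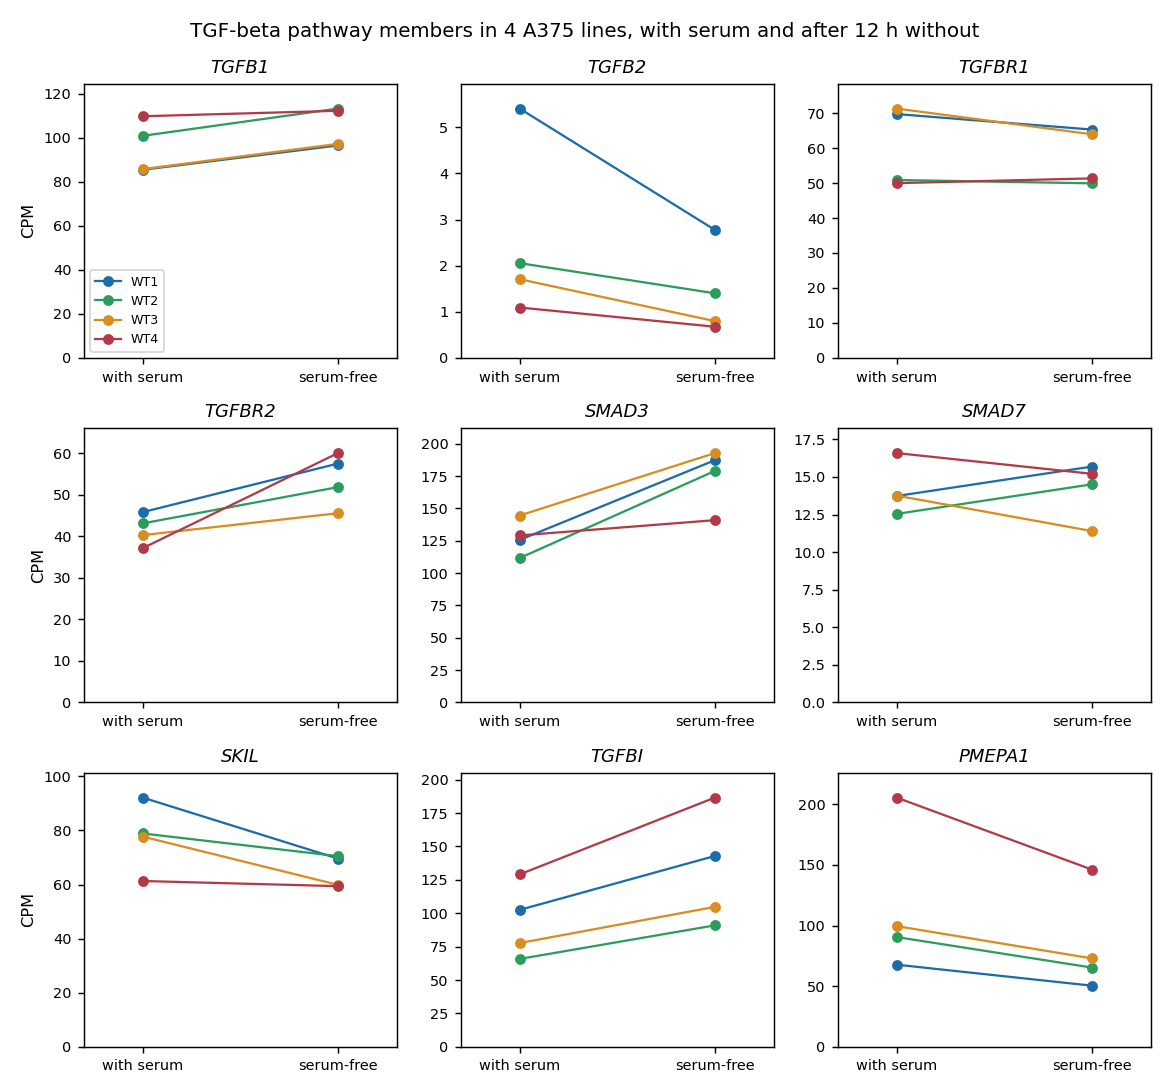
Level of the 9 genes in CPM, counts scaled to library size (vertical axes from 0), in each line with serum and after 12 h without it. Each point is 1 library and each segment joins the 2 libraries of 1 line. The segments of *TGFBR2*, *SMAD3* and *TGFBI* rise and those of *TGFB2*, *SKIL* and *PMEPA1* fall in all 4 lines, while the 2 conditions overlap in every panel.

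The type II receptor was the first of the 2 genes that rose in both fits. *TGFBR2* (ENSG00000163513, chromosome 3 of GRCh38, 30606356 to 30694142) was at 45.9, 43.1, 40.3 and 37.2 CPM with serum in WT1 to WT4. Without serum it was at 57.6, 51.9, 45.6 and 60.1 CPM in the same order. WT4 went from the lowest level with serum to the highest without, and the groups overlapped only because WT3 without serum lay just under WT1 with serum. The means were 41.6 ± 3.73 and 53.8 ± 6.45 CPM (SD, n = 4). The fit gave a log2 fold change of 0.37 with a standard error of 0.10 (edgeR adjusted p = 0.0244), or 0.36 ± 0.08 with the block (edgeR adjusted p = 0.00143), a rise of 28.7%. The call without the block was lost in 7 of 12 fits with 1 library or 1 line removed, at adjusted p between 0.0505 and 0.0820 in edgeR, and the block kept it without each line in turn.

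The type I receptor did not follow. *TGFBR1* (ENSG00000106799, chromosome 9, 99103647 to 99154192) was at 69.8, 50.9, 71.3 and 50.0 CPM with serum in WT1 to WT4, and at 65.3, 49.9, 64.0 and 51.4 CPM without. WT1 and WT3 were high and WT2 and WT4 low in either condition. Fitted over the lines, the log2 fold change was -0.07 ± 0.15 (SE, edgeR adjusted p = 0.762) without the block and -0.06 ± 0.06 (edgeR adjusted p = 0.432) with it. It was positive, at 0.12, after a correction for the GC content of transcripts described below.

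SMAD3, the transducer that the activated type I receptor phosphorylates, had the lowest adjusted p of the 9 without the block. *SMAD3* (ENSG00000166949, chromosome 15, 67065602 to 67195169) was at 126, 112, 145 and 129 CPM with serum in WT1 to WT4. Without serum it was at 187, 179, 193 and 141 CPM. WT1, WT2 and WT3 rose well above every serum library, and WT4 rose by 0.13 on the log2 scale, to a level still below WT3 with serum. The means were 128 ± 13.5 and 175 ± 23.4 CPM (SD, n = 4). The fitted log2 fold change was 0.45 ± 0.11 (SE, edgeR adjusted p = 0.0158) and 0.45 ± 0.08 with the block (edgeR adjusted p = 2.1e-04), a rise of 36.8%. It stayed called in 9 of the 12 fits with a library or line left out and was lost without WT1, WT2 or WT3, where adjusted p in edgeR reached 0.107. Leaving out WT4 gave the largest estimate with the block, 0.56. An uncharacterised antisense transcript that overlaps *SMAD3* had 5 to 31 reads.

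*TGFB1* (ENSG00000105329, chromosome 19, 41330323 to 41353922) was the main ligand of these cells. It was at 85.5, 101, 85.8 and 110 CPM with serum in WT1 to WT4, and at 96.5, 113, 97.3 and 112 CPM without. WT1, WT2 and WT3 rose by 0.17 to 0.18 on the log2 scale and WT4 by 0.03. The log2 fold change was 0.14 ± 0.10 (SE, edgeR adjusted p = 0.353) without the block and 0.14 ± 0.05 (edgeR adjusted p = 0.0499) with it. That narrow call was lost when WT1, WT2 or WT3 was left out, with adjusted p from 0.183 to 0.237 in edgeR, and the sign turned to -0.11 with the GC correction. *TGFB1* overlaps *HNRNPUL1* on the opposite strand, which had 15942 to 36083 reads, and the strand setting of the counts is not given in the sources used here.

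The second ligand was scarce and fell in every line. *TGFB2* (ENSG00000092969, chromosome 1, 218345336 to 218444619) was at 5.41, 2.05, 1.71 and 1.09 CPM with serum in WT1 to WT4, and at 2.77, 1.40, 0.80 and 0.68 CPM without. WT1 stood above the other lines in both conditions, and its serum-free library exceeded the other 3 serum libraries. These values rest on 31 to 204 reads. Fitted without the block, the log2 fold change was -0.87 ± 0.59 (SE, edgeR adjusted p = 0.318), and with it -0.82 ± 0.19 (edgeR adjusted p = 0.00297). Removing 1 library of WT1 moved the value without the block to -0.21 (no serum library) or -1.41 (no serum-free library), neither of them called. The fall with the block was kept without each line in turn, at adjusted p of 0.00103 to 0.0420 in edgeR. The antisense gene *TGFB2-AS1* had 0 to 6 reads.

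Scaled to transcript length, the ligands could be set side by side with *TGFB3*, the remaining TGFβ gene. *TGFB1* made up 95.5% to 97.8% of the summed RPKM, reads scaled to transcript length and library size, of the 3 ligands in the 8 libraries. *TGFB2* held 3.26%, 1.07%, 1.04% and 0.52% with serum in WT1 to WT4, and 1.50%, 0.65%, 0.42% and 0.31% without. *TGFB3* held 1.26%, 1.18%, 1.87% and 2.94% with serum and 1.97%, 1.83%, 3.40% and 3.41% without. The minor ligands moved in opposite directions in every line: the share of *TGFB2* fell and that of *TGFB3* rose. *TGFB3* had 68 to 358 reads, and its log2 fold change was 0.66 ± 0.38 (SE, edgeR adjusted p = 0.234) without the block and 0.72 ± 0.16 (edgeR adjusted p = 0.00192) with it. Without the serum library of WT4 the value without the block was 1.11 (edgeR adjusted p = 0.0191), and without the whole line 0.91 (0.0296).

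**Figure D2:**
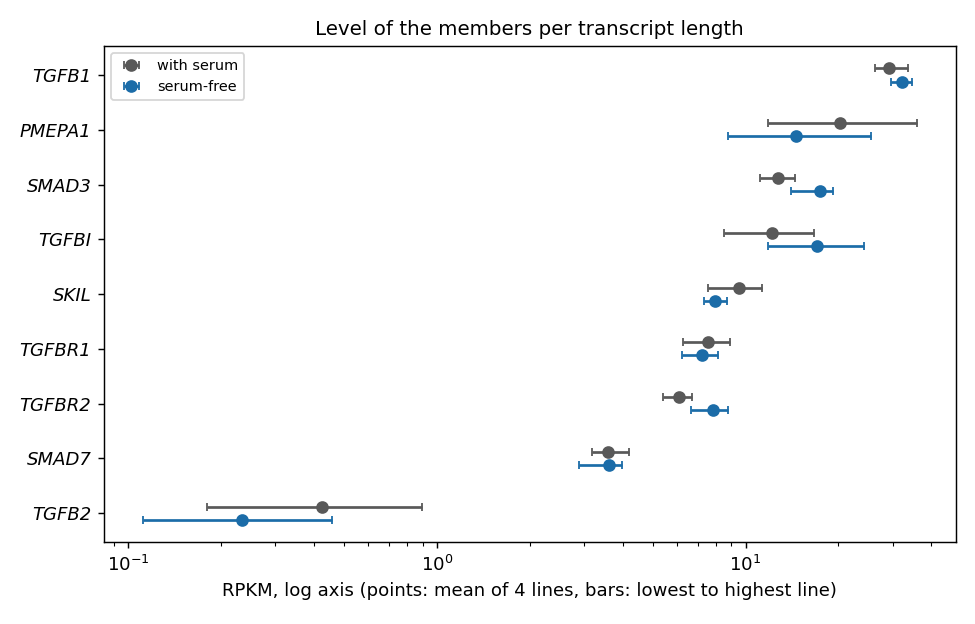
Level of the 9 genes in RPKM, reads scaled to merged exon length and library size (log axis). Points are means of 4 lines and bars run from the lowest to the highest line, with serum (grey) and without (blue). *TGFB1* is highest and *TGFB2* lowest in both conditions, and the bars of most neighbours overlap.

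Per length and with serum, the order of mean levels was *TGFB1* (29.3 RPKM), *PMEPA1* (20.2), *SMAD3* (12.8), *TGFBI* (12.2), *SKIL* (9.55), *TGFBR1* (7.57), *TGFBR2* (6.08), *SMAD7* (3.59) and *TGFB2* (0.42). The ranges over the lines separated *TGFBR2* from *SMAD7* and *SMAD7* from *TGFB2*. All other neighbours in this order overlapped between lines. Without serum *SMAD3* (17.5 RPKM) and *TGFBI* (17.0) stood above *PMEPA1* (14.6), and *TGFBR2* (7.85) above *TGFBR1* (7.21). With the longest transcript as the length instead of all merged exons, *TGFBI* came above *SMAD3* in both conditions.

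Of the 3 genes for feedback inhibitors, 2 fell in the fit with the block. SMAD7 blocks the activated receptor, and its gene had no direction shared by the lines. *SMAD7* (ENSG00000101665, chromosome 18, 48919853 to 48950965) was at 13.7, 12.5, 13.8 and 16.6 CPM with serum in WT1 to WT4, and at 15.7, 14.5, 11.4 and 15.2 CPM without. It was higher in WT1 and WT2 and lower in WT3 and WT4. The log2 fold change was 0.01 ± 0.13 (SE, edgeR adjusted p = 0.975) without the block and 0.01 ± 0.10 (edgeR adjusted p = 0.961) with it.

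SKIL, also called SnoN, is a nuclear repressor that holds SMAD target genes off. *SKIL* (ENSG00000136603, chromosome 3, 170357715 to 170396849) was at 92.2, 78.9, 77.7 and 61.3 CPM with serum in WT1 to WT4, and at 69.6, 70.5, 59.9 and 59.4 CPM without. All 4 lines moved down, from a log2 difference of -0.40 in WT1 to one of -0.05 in WT4. The log2 fold change was -0.26 ± 0.12 (SE, edgeR adjusted p = 0.140) without the block and -0.25 ± 0.07 (edgeR adjusted p = 0.00777) with it. Without the block it was called when WT4 (log2 fold change -0.31, edgeR adjusted p = 0.0268) or its serum library (-0.36, 0.0164) was left out. With the block it lost its call when WT1 (edgeR adjusted p = 0.0767) or WT3 (0.0557) was left out. It was also lost, at a log2 fold change of -0.01, after the GC correction.

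PMEPA1, a membrane protein that binds receptor-regulated SMADs and keeps them from the receptor, fell by a similar amount in each line. *PMEPA1* (ENSG00000124225, chromosome 20, 57648396 to 57711472) was at 67.8, 90.6, 99.6 and 206 CPM with serum in WT1 to WT4. Without serum it was at 50.5, 65.4, 73.0 and 146 CPM. The order of the lines was the same in both conditions, with WT4 far above the others, so that WT4 without serum exceeded WT1, WT2 and WT3 with serum. Within lines the log2 differences lay between -0.49 and -0.43. Its fitted log2 fold change was -0.47 ± 0.44 (SE, edgeR adjusted p = 0.481) without the block and -0.46 ± 0.05 (edgeR adjusted p = 8.2e-06) with it, and the level fell by 27.3%. The value without the block moved when 1 library of WT4 was left out, to -0.04 without its serum library and -0.88 without its serum-free library. Without the whole line WT4 it was -0.45, and none of these was called. The antisense gene *NKILA*, whose reads could not be told apart by strand, had 24 to 163 reads beside 2128 to 8231 for *PMEPA1*.

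*TGFBI* was the counterpart in the other direction. It encodes a secreted matrix protein named for its induction by TGFβ (ENSG00000120708, chromosome 5, 136028988 to 136063818). *TGFBI* was at 102, 65.8, 77.7 and 129 CPM with serum in WT1 to WT4, and at 143, 91.0, 105 and 187 CPM without. The order of the lines was again kept, with WT4 highest and WT2 lowest. Within lines *TGFBI* rose by 0.43 to 0.53 on the log2 scale. The log2 fold change was 0.49 ± 0.28 (SE, edgeR adjusted p = 0.239) without the block and 0.48 ± 0.05 (edgeR adjusted p = 5.9e-06) with it, a rise of 39.3%. Without the block the value was 0.68 without the serum library of WT4 and 0.27 without its serum-free library, neither of them called. Both targets kept their calls with the block without each line in turn.

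**Figure D3:**
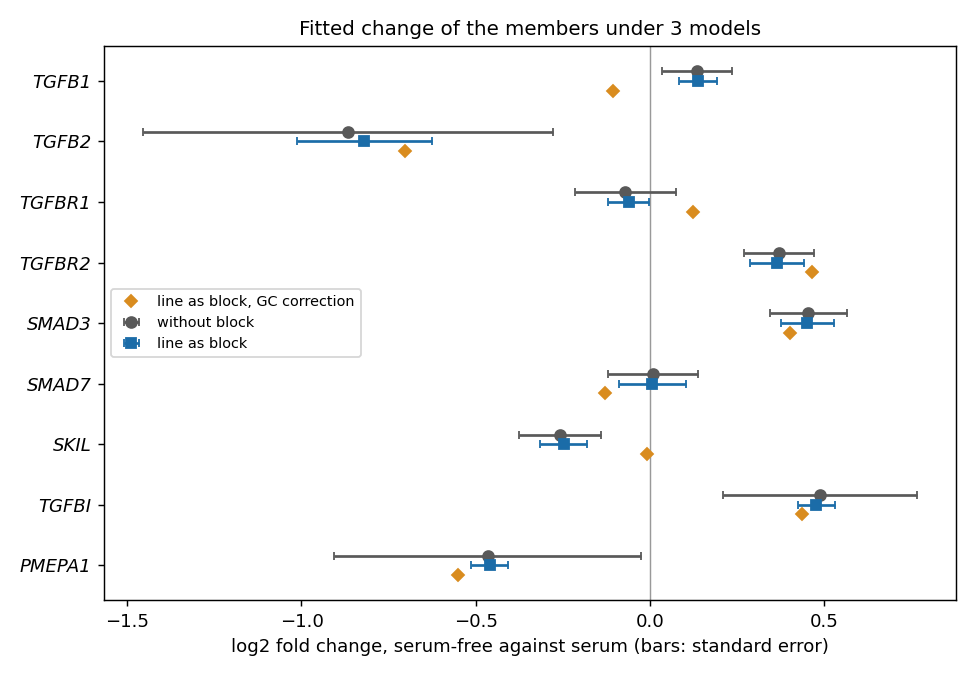
Fitted log2 fold change of each gene, serum-free against serum, without a block (grey circles), with the line as a block (blue squares) and with the block and a GC correction (orange diamonds). Bars are standard errors of the first 2 fits. The bars of *TGFBI*, *PMEPA1* and *TGFB2* shorten most with the block, and the diamonds of *TGFB1*, *TGFBR1* and *SMAD7* lie across 0 from the other points.

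GC-rich transcripts tended to have higher fold changes over all genes (rho of 0.36 by Spearman's method over 17425 genes, as a description). A fit with the block that also removed this trend called 4 of the 9 higher and 2 lower, beside 23.5% and 22.9% of all genes. *TGFBR2* (0.46), *SMAD3* (0.40), *TGFBI* (0.44), *PMEPA1* (-0.55) and *TGFB2* (-0.70) kept their direction and call in it. *SKIL*, with a transcript of 35.8% GC, lost its call. *TGFB1*, at 63.6% GC, went from 0.14 to -0.11 (edgeR adjusted p = 0.0519), and *TGFBR1*, at 38.8% GC, from -0.06 to 0.12 (edgeR adjusted p = 0.0325). Whether the trend is technical was not tested.

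The serum libraries of WT1 and WT2 had the high share of reads aligned to several places, so the lines WT3 and WT4 were also compared alone. With the block, 3 of the 9 were then called, 2 higher and 1 lower, beside 12.0% and 12.2% of all genes: *TGFBR2* (0.43, edgeR adjusted p = 0.00859), *TGFBI* (0.48, edgeR adjusted p = 0.00142) and *PMEPA1* (-0.47, edgeR adjusted p = 0.00176). *SMAD3* was at 0.27 (edgeR adjusted p = 0.0956) and *TGFB2* at -0.90 (edgeR adjusted p = 0.114) in these 2 lines. Without the block the 2 lines gave 0 calls among the 9 and 14 among all genes.

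The lines themselves differed in several of these genes. A test of the line, with the condition in the model, called 6 of the 9 in edgeR, where 22.9% of all genes were called. Averaged over both conditions, the highest and lowest lines were 4.35-fold apart for *TGFB2* (edgeR adjusted p = 1.18e-04), with WT1 highest and WT4 lowest. They were 2.96-fold apart for *PMEPA1* (edgeR adjusted p = 9.7e-09), with WT4 highest and WT1 lowest, and 2.01-fold for *TGFBI* (edgeR adjusted p = 7.0e-07), with WT4 highest and WT2 lowest. WT4 therefore joined the highest level of both targets to the lowest level of *TGFB2*.

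Smaller line differences were called for *TGFBR1* (1.34-fold, edgeR adjusted p = 9.3e-04), *SKIL* (1.33-fold, 0.0276) and *TGFB1* (1.22-fold, 0.0173). *TGFBR1* split the lines into a high pair, WT1 and WT3, and a low pair, WT2 and WT4, and *TGFB1* split them the opposite way. *SMAD7*, *SMAD3* and *TGFBR2*, at 1.27-, 1.24- and 1.20-fold, were not called (edgeR adjusted p = 0.281, 0.159 and 0.339). Without WT4, *SMAD3* (edgeR adjusted p = 0.0149) and *TGFBR2* (0.0219) were called as well, and without WT1 the calls of *TGFB1*, *TGFB2* and *SKIL* were lost. The line call of *TGFB1* was also lost without WT3 (edgeR adjusted p = 0.0732) and without any 1 of 6 single libraries (0.0611 to 0.113), and that of *SKIL* without any 1 of 5 (0.0526 to 0.161). Whether the lines respond differently to serum removal could not be tested, since each line has 1 library per condition.

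**Figure D4:**
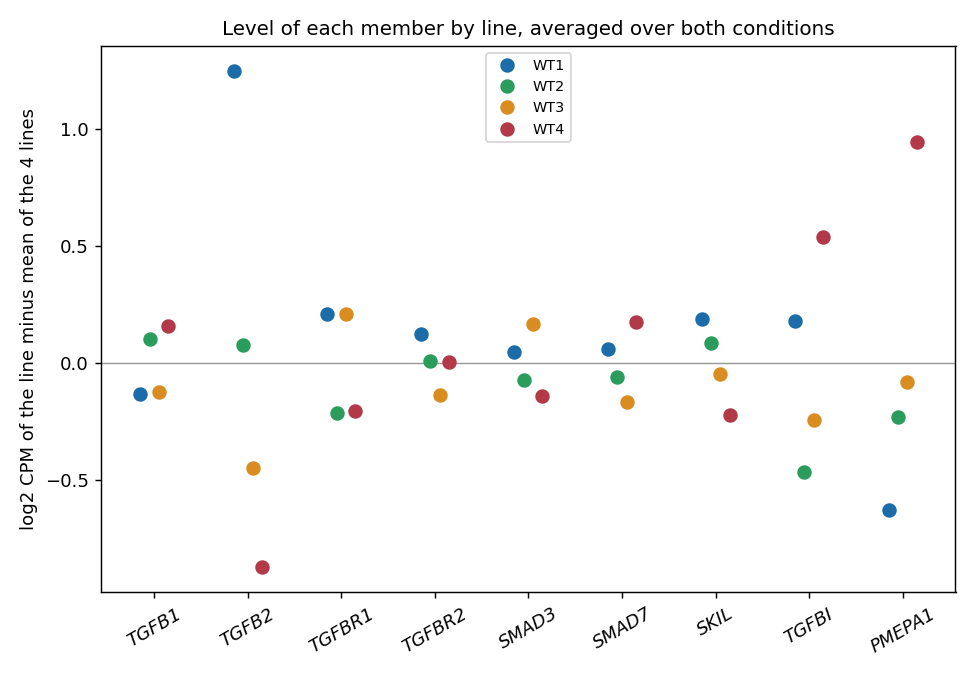
Log2 CPM of each line minus the mean of the 4 lines, averaged over both conditions, for the 9 genes. Each point is 1 line (2 libraries). WT4 lies highest for *PMEPA1* and *TGFBI* and lowest for *TGFB2*, where WT1 is highest.

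The 250 bases before the start site of each gene were searched for letters bound by the pathway's factors, on both strands. They are shown for 4 genes with a change in the block fit, 2 upward and 2 downward, whose first listed start site in RefSeq (GRCh38.p14) carries GGCGCC, a GC-rich SMAD motif. Capitals mark GGCGCC, and in *SKIL* also the short SMAD box CAGAC, which reads GTCTG on the other strand. The windows are read along the strand of the gene: plus for *TGFBI* (chr5:136028738-136028987), *SMAD3* (chr15:67065352-67065601) and *SKIL* (chr3:170357465-170357714), and minus for *PMEPA1* (chr20:57711473-57711722).
TGFBI: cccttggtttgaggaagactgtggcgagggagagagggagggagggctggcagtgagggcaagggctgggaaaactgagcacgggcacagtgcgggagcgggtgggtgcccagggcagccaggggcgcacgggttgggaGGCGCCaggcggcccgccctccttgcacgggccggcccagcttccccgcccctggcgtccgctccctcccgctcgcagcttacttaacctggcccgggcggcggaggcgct
SMAD3: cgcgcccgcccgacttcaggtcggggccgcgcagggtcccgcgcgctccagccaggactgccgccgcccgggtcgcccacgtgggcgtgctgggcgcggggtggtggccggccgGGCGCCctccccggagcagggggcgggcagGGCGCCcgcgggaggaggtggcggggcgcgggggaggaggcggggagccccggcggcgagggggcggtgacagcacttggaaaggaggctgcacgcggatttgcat
PMEPA1: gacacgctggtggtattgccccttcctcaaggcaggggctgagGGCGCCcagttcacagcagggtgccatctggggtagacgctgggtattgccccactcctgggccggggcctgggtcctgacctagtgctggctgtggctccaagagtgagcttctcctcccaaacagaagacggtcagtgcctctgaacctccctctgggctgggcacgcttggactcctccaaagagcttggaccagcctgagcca
SKIL: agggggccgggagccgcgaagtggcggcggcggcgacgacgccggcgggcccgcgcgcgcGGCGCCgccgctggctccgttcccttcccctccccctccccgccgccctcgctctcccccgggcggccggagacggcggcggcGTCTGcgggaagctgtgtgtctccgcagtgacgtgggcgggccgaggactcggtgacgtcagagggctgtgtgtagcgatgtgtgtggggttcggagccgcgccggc

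GGCGCC was thus found before genes that were higher and genes that were lower without serum. *SMAD3* holds it at 2 places and the other 3 genes at 1. Over the first listed start site of each of the 9 genes it occurred in 4 windows, beside 16.1% of the 27305 genes in the table. Over all 26 listed start sites of the 9 genes it occurred in 5, beside 16.4% of all 35116 windows. These 4 windows contain 63.2% to 80.8% G and C. CAGAC occurred in 4 of the 9 windows, those of *TGFB2*, *TGFBR1*, *SMAD7* and *SKIL*, beside 37.8% of all genes. The full palindrome GTCTAGAC, the SMAD-binding element, and the AP-1 letters TGANTCA occurred in 0 of the 9, beside 0.18% and 6.60% of all genes. A match describes letters in this window and not a bound site. *TGFBR2* and *TGFB1*, whose first windows hold 40.8% and 76.8% G and C, had none of the 4 motifs there.

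Beyond the 9 genes, 67 other genes of the pathway were listed by role, and 58 of them had enough reads to test. Without the block 4 were called higher and 4 lower in edgeR, and with it 14 and 18, beside the same backgrounds of 11.1%, 14.0%, 23.2% and 22.4%. The median log2 fold change was 0.03 without the block and 0.02 with it, close to that of all genes. Line differences were called in 33 of the 58, beside 22.9% of all genes.

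**Figure D5:**
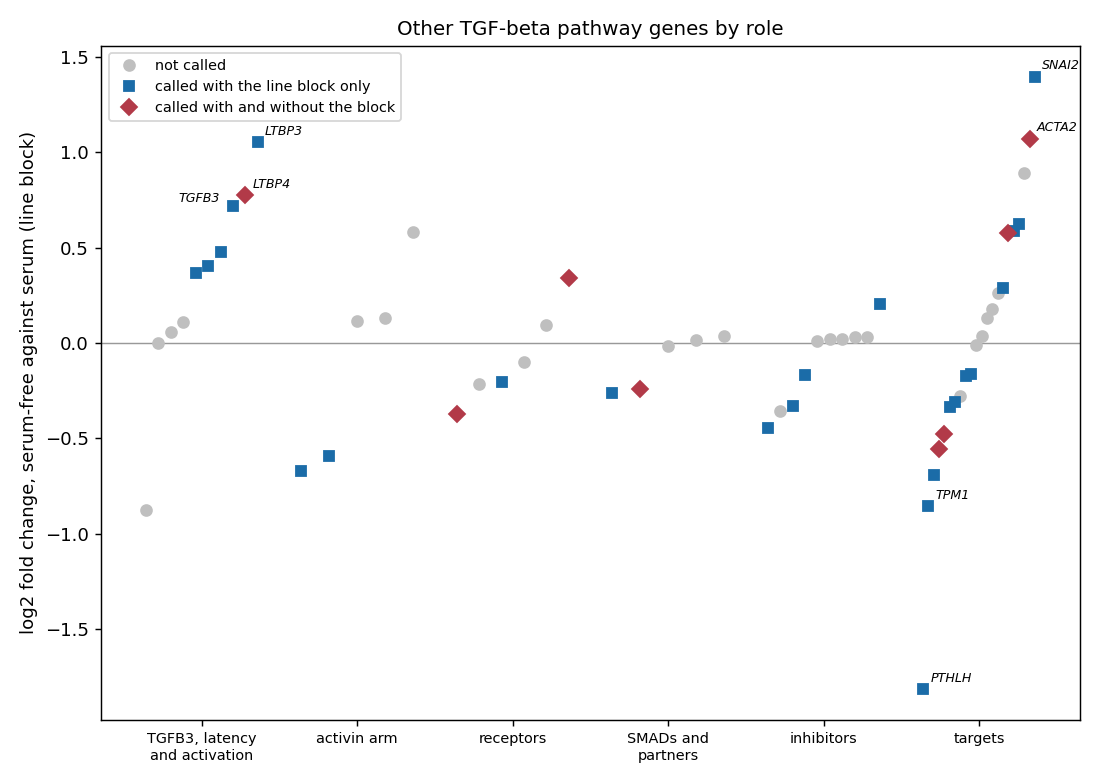
Log2 fold change, serum-free against serum with the line as a block, of 58 other pathway genes arranged by role and sorted within each role. Points are genes: not called (grey circles), called with the block only (blue squares) and called in both fits (red diamonds). The genes called in the first role all lie above 0, whereas the targets lie on both sides.

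Of 12 genes for *TGFB3* and for the latency and release of TGFβ, 10 were tested. With the block 6 were higher and 0 lower, beside 23.2% and 22.4% of all genes, and without it 1 was higher, beside 11.1%. That gene was *LTBP4*, which encodes a protein that anchors latent TGFβ in the matrix. *LTBP4* was at 53.6, 62.0, 57.6 and 77.4 CPM with serum in WT1 to WT4, and at 99.9, 103, 102 and 120 CPM without. All serum-free libraries lay above all serum libraries, and the log2 fold change was 0.77 ± 0.12 (SE, edgeR adjusted p = 0.00235), or 0.48 with the GC correction (edgeR adjusted p = 4.4e-04). The other 5 were *TGFB3*, *LTBP1*, *LTBP2*, *NRROS*, whose product tethers latent TGFβ to the cell surface, and *LTBP3*, which had a log2 fold change of 1.05 ± 0.08 with the block (edgeR adjusted p = 7.9e-07). *LTBP1*, *LTBP2*, *LTBP3* and *NRROS* were named after their values were seen. The most abundant gene of this role, *THBS1*, whose product activates latent TGFβ, was at 6467 ± 1819 CPM with serum and 3892 ± 1986 CPM without (SD, n = 4). It was lower in all 4 lines but did not pass with the block (log2 fold change -0.88 ± 0.24 SE, edgeR adjusted p = 0.0644) or without it (0.259), and it was named after its values were seen. Among untested genes of this role, *ITGB6* and *LRRC32*, also named after their values were seen, had almost no reads.

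Of the 6 receptors and co-receptors tested, 1 was higher and 2 were lower with the block, beside 23.2% and 22.4% of all genes. The 2 activin type II receptors moved apart. *ACVR2B* was at 35.6, 34.5, 37.5 and 30.9 CPM with serum in WT1 to WT4 and at 44.4, 45.6, 42.0 and 42.7 CPM without, a log2 fold change of 0.33 ± 0.08 (SE, edgeR adjusted p = 0.0111). *ACVR2A* was at 18.0, 15.0, 15.8 and 14.1 CPM with serum and at 12.6, 11.6, 11.5 and 12.8 CPM without, a log2 fold change of -0.38 ± 0.10 (SE, edgeR adjusted p = 0.0238). The groups did not overlap for either, as for 12.6% (above) and 15.0% (below) of all genes. The GC correction took the call of *ACVR2A* away (log2 fold change -0.15, edgeR adjusted p = 0.257) and kept that of *ACVR2B*. With 1 library or line removed, *ACVR2B* stayed called in 10 of 12 fits and *ACVR2A* in 5. The co-receptor gene *ENG*, named after its values were seen, was the other one lower with the block (log2 fold change -0.21 ± 0.06 SE, edgeR adjusted p = 0.00711). The co-receptor betaglycan, *TGFBR3*, was at 7.22 ± 0.82 CPM with serum and 6.73 ± 0.56 CPM without (SD, n = 4, edgeR adjusted p = 0.605).

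SMAD2, which shares its receptor and its partner SMAD4 with SMAD3, went the other way from it. *SMAD2* was at 144, 137, 145 and 111 CPM with serum in WT1 to WT4, and at 113, 109, 119 and 106 CPM without. It was lower in all 4 lines, with a log2 fold change of -0.27 ± 0.09 (SE, edgeR adjusted p = 0.0533) without the block and -0.26 ± 0.06 (edgeR adjusted p = 0.00214) with it. Without the block it was called by DESeq2 (adjusted p = 0.0260), with RLE scaling or no filter (0.0459 and 0.0485 in edgeR) and when WT4 or its serum library was left out (0.0030 and 0.0025), and with the GC correction and the block it was at -0.11 (edgeR adjusted p = 0.0410). *SMAD4*, the common partner, was at 69.6 ± 7.39 and 71.2 ± 4.08 CPM (SD, n = 4, edgeR adjusted p = 0.816), and was called higher with the block and GC correction (log2 fold change 0.17, edgeR adjusted p = 0.00408). *TGFBRAP1*, whose product binds TGFβ receptors and SMAD4, fell from 52.4 ± 2.28 to 44.4 ± 2.84 CPM (SD, n = 4, log2 fold change -0.24, edgeR adjusted p = 0.0303), a call lost with upper-quartile scaling (0.0854), without a filter on low counts (0.0694) and in 9 of 12 fits with 1 library or line removed (up to 0.159). In the list of 5 tested SMADs and partners, 0 were higher and 2 lower with the block, beside the same shares of all genes.

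Of the 10 other inhibitors, all tested, 0 were called without the block in edgeR. With it *TGIF1*, a corepressor, was higher, and *NEDD4L*, *SMURF2* and *TRIM33*, which encode ubiquitin ligases that act on SMADs or receptors, were lower, so that 1 and 3 of 10 stood beside backgrounds of 23.2% and 22.4%. These 4 were named after their values were seen. The activin arm had 5 testable genes of 8. With the block 0 were higher and 2 lower, again beside 23.2% and 22.4%, *INHBA*, the activin A subunit (943 to 4304 reads), and *FST*, the activin antagonist follistatin (3411 to 18076 reads). *GDF11* had 1934 to 5171 reads and *FSTL3* 744 to 3700. *INHBB* had 1 to 72, *INHBE* 1 to 37, *NODAL* 0 to 11 and *MSTN* 0 to 6.

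Target genes known from other cells moved in both directions. Of 24 listed, 22 were tested, 2 were called higher and 2 lower without the block, beside 11.1% and 14.0% of all genes, and 6 and 9 with it, beside 23.2% and 22.4%. *TGFB1I1*, which encodes the focal adhesion adaptor Hic-5, was at 19.5, 22.2, 21.1 and 21.1 CPM with serum in WT1 to WT4 and at 30.7, 33.7, 32.1 and 28.5 CPM without (log2 fold change 0.58 ± 0.08 SE, edgeR adjusted p = 0.00193). *ACTA2*, smooth muscle actin, rose by 1.03 ± 0.30 on the log2 scale (SE, edgeR adjusted p = 0.0310), with 20 to 158 reads per library, and it overlaps *FAS* on the opposite strand, with 394 to 1325 reads. Its call held in 4 of 12 fits with 1 library or line removed (adjusted p up to 0.166 in edgeR). In the other direction, *IL11*, a cytokine gene, was at 8.06, 9.42, 10.7 and 8.24 CPM with serum and 5.38, 6.31, 6.55 and 6.45 CPM without (log2 fold change -0.56 ± 0.13 SE, edgeR adjusted p = 0.0145). *HMGA2*, which encodes a chromatin protein, was lower by 0.48 ± 0.14 on the log2 scale (SE, edgeR adjusted p = 0.0328), a call lost with the GC correction (0.147), with upper-quartile scaling (0.0608) and in 8 of 12 fits with 1 library or line removed (up to 0.135). *IL11* kept its call in 9 of those 12. The groups did not overlap for these 4, 2 above and 2 below among the 22, where 12.6% and 15.0% of all genes lay so.

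*CCN2*, a matricellular growth factor gene, was at 103, 92.1, 88.2 and 50.1 CPM with serum and 96.8, 95.5, 75.1 and 26.7 CPM without (edgeR adjusted p = 0.778, and 0.172 with the block). With the block it was called lower without WT2 (log2 fold change -0.40, edgeR adjusted p = 0.0303) and in WT3 and WT4 alone (-0.56, 3.6e-04). *CDKN2B*, named after its values were seen, had 0 reads in every library. The largest changes in the block fit among the targets, named after their values were seen, were *PTHLH*, a parathyroid hormone-related gene, at -1.82 ± 0.17 (SE, edgeR adjusted p = 1.4e-06) and *SNAI2*, a transcription factor gene, at 1.40 ± 0.24 (SE, edgeR adjusted p = 2.5e-04). *SNAI2* had 2 to 372 reads and *PTHLH* 23 to 721.

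For each of the 9 genes, the 2 genes with the most similar log2 CPM across the 8 libraries were found, among genes with a mean of at least 100 reads. Pearson's r ran from 0.92 to 0.99, over libraries that share lines and conditions, so these values are a description. *TGFBR2* was most like *MPPE1* (0.98) and *PPP1R3E* (0.97), and *SMAD3* most like *ATOH8* (0.98) and *HEBP1* (0.97). *PMEPA1* was most like *ANKRD39* (0.99) and *BMAL1* (0.98), and *TGFBI* most like *TP73-AS1* (0.99) and *WASHC2A* (0.98). *SKIL* was most like *ALG10* and *SACM1L* (both 0.99). The nearest genes of *TGFB1* were *KRT6B* (0.98) and *EBF1* (0.97), those of *TGFB2* were *NT5DC3* and *SNRK* (both 0.97), those of *TGFBR1* were *ADCY1* (0.96) and *NUBPL* (0.95), and those of *SMAD7* were *RAP1GAP* (0.93) and *PLCL2* (0.92). None of the 18 belongs to the pathway lists.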

How the data were processed

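Total RNA of 8 cultures, 4 A375 lines with and without serum for 12 h, was depleted of ribosomal RNA and sequenced as paired ends from a library kit that does not mark strand. The deposited values are raw counts of reads on genes, whole and not normalized by the authors, and nothing else was used. The submitters' processing notes name cutadapt, TopHat2 2.0.11, HTSeq and GRCh38; the annotation release and strand setting are not given in the sources used here. FPKM values that the study's methods derive on hg19 with Cufflinks played no part.

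Counts on genes (29759279 to 73341551 per library) went through edgeR 4.0.16 in R 4.3.3 with its filterByExpr filter, TMM scaling, robust glmQLFit and glmQLFTest, and p-values were adjusted over 17671 genes by the Benjamini-Hochberg method at 0.05. The lines were replicates; the line as a block was the alternative. Libraries of 1 line come from the same clone and deviated together from the condition means, with correlations of 0.40, 0.59, 0.46 and 0.60 in WT1 to WT4. Between different lines they were at most 0.13, but taking deviations from the mean of the same lines in itself lowers these values. Line differences were tested with the condition in the model. Log2 CPM values used a prior count of 2.

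Positions and promoter sequences were matched by symbol to RefSeq (GRCh38.p14), and all 9 genes matched. Lengths and GC content came from GENCODE v44 lifted to GRCh37, another build, with GC content for 98.6% of tested genes. Other alternatives were DESeq2 1.42.0, voom in limma 3.58.1, RLE and upper-quartile scaling, other filters, a GC correction, other length scalings and leaving out each library or line. The tests were checked on simulated data, where only 200 genes differed much between lines, beside 4055 called among lines here. The fit without the block was thus checked under smaller line differences than these. With 200 genes changed by condition, 3 others were called falsely without the block and 14 with it. In the line test, 65 genes were called falsely beside the 200 changed ones. The genes named are the 9, *TGFB3*, *TGFBR3*, *SMAD2*, *SMAD4* and *CCN2*, the activin arm by its reads, in each role up to 2 called genes of lowest p per direction without the block, and the 2 most similar genes of each of the 9; others are marked in the text. A gene of this rule is not reported here. The 9 genes and all lists were chosen with earlier results of these data known.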

Additional observations from a re-analysis of the deposited data

Results flagged for a closer look

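Among 69 sets of 4 values (levels and within-line differences), 1 had a library or line far from the other 3, where about 3.45 would be flagged by chance at 1 in 20. The log2 difference of *TGFB1* between serum-free and serum was 0.0319 in WT4, and the nearest line, WT2, was at 0.17. The gap was 0.91 of the whole range, above the 95% limit of Dixon's test for 4 values.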

How the results depend on the processing

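The count of called genes depended on the line block and on which lines were included. Without the block, DESeq2, voom, RLE and upper-quartile scaling, both filters and the GC correction each left 2 of the 9 called. With the block the calls were 7 of the 9, 32 of the 58 other pathway genes and 8067 of all genes, against 2, 8 and 4434 without it, and with block and GC correction 6, 34 and 8207. Among the 9 the block added calls and took none away. WT3 and WT4 alone gave 0, 0 and 14 calls, and with the block 3, 22 and 4300. Leaving out a library or a line gave 0 to 3 of the 9, 2 to 14 pathway genes and 1589 to 6128 genes in all, and with the block 5 to 7, 26 to 35 (27 without WT1, 29 without WT2) and 6185 to 8938. The fewest came without line WT1 (0, 2 and 1589), and 0 of the 9 were called without WT2 as well. The count of the 9 that differ among lines ran from 3 (without WT1) to 8, and was 6 with DESeq2. The comparison of WT3 and WT4 alone and the block with a line left out were added after seeing the data.

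Signs turned only for genes that were not called without the block in all 8 libraries. Of these, *TGFB1*, *TGFBR1*, *SMAD4* and *CCN2* were called in some other fit. *TGFB1* went to -0.11 with the GC correction, with and without the block (adjusted p of 0.0519 and 0.313 in edgeR). *TGFBR1* went to 0.12 in both (0.0325 and 0.510), and ran from -0.15 to 0.018 with a library or line left out. *SMAD7* went to -0.13 in both GC fits, to -1.16e-04 with DESeq2, -0.0029 with RLE scaling, -0.19 in WT3 and WT4 alone and -0.20 there with the block; leaving out a library or line gave -0.059 to 0.092, and with the block -0.056 without WT1 and -0.066 without WT2. *TGFBR3* went to 0.020 with the GC correction and 0.023 with block and GC correction. With a library left out, *SMAD4* ran from -0.013 to 0.078 and *CCN2* from -0.37 to 0.10. The cause was not tested. Upper-quartile scaling moved the median of all genes to 0.10 from 0.03 and turned the split of calls from 1957 higher and 2477 lower to 2508 and 1843. Depth limits *TGFB2* and *TGFB3*, the last with at most 358 reads per library.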
